A study of Mus musculus with 4 samples.

Results

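The autophagy genes are 41 of the 16442 rows of the deposited expression table. They were chosen by symbol, with earlier results of these data known. The rule takes the rows beginning with Atg and a digit, Gabarap, Map1lc3 or Wipi. It adds 16 further genes that build the autophagosome or bring cargo to it. Messenger RNA was sequenced from leukaemia stem cells, the marrow cells that can restart the disease, of leukaemic C57BL/6 mice. The libraries labelled KO came from mice with a knockout of Rreb1, which encodes a zinc-finger DNA-binding protein of RAS signalling, and those labelled WT from wild-type mice, with 2 libraries of each. The replicates are stated to be biological, but the sources used here do not give the leukaemia model, the deleted part of the gene or whether a replicate is 1 mouse or a pool. The p-values measure the spread between these libraries. KO replicate 2 has Rreb2 in its genotype label and the protocol for RNA speaks of TAMs, so the titles of the libraries set the groups.

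In autophagy a membrane grows around part of the cytoplasm, closes into an autophagosome and fuses with the lysosome, which degrades the content. The ULK1 complex starts the process and the PI3-kinase complex around Beclin 1 marks the membrane with the lipid PI3P. The ubiquitin-like conjugation machinery then couples ATG8 proteins (the LC3 and GABARAP families) to the membrane, where cargo receptors bind them. When the cargo is a mitochondrion the process is called mitophagy. In blood, autophagy is known for maintaining haematopoietic stem cells, and mitophagy for clearing mitochondria from maturing red cells.

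The libraries held 16590830 to 18451251 assigned reads. Rreb1 itself was at 6.10 and 6.93 FPKM (fragments per kilobase of exon, scaled by the library's assigned fragments) in KO and at 5.24 and 6.57 FPKM in WT, so the groups overlapped. A gene-wide value does not test for the removal of 1 exon, so the genotypes are unchecked, and KO and WT mean the libraries so labelled. Of 6 markers of leukaemic progenitors, all were expressed, with Hoxa9 at 35.8 and 31.8 FPKM in KO and 28.9 and 30.4 FPKM in WT. Kit was at 7.36 and 7.15 FPKM in KO and 3.65 and 4.25 FPKM in WT. In the other direction, Cd34 was at 50.5 and 49.8 FPKM in KO and 68.3 and 71.5 FPKM in WT, and Flt3 at 19.5 and 17.7 FPKM in KO and 26.2 and 28.2 FPKM in WT. By limma 0 of the 6 were called, while by limma-voom 1 (Kit) rose and 2 (Cd34 and Flt3) fell. Markers of other marrow cells moved between the groups. The 9 neutrophil markers summed to 2901 and 3490 FPKM in KO and to 1237 and 1272 FPKM in WT, and 7 of them rose. The largest part was S100a8 (1173 and 1506 FPKM in KO, 560 and 584 FPKM in WT). Ltf (29.5 and 16.4 FPKM in KO, 23.5 and 22.3 FPKM in WT) was not called. Nor was Cxcr2, which was lower in KO (1.99 and 1.91 FPKM, against 2.08 and 2.27 FPKM in WT). The 8 erythroid markers summed to 422 and 514 FPKM in KO and to 93.1 and 83.7 FPKM in WT, and 5 of 6 tested rose. The 8 macrophage markers summed to 63.4 and 62.1 FPKM in KO and to 113 and 132 FPKM in WT, and 4 of 6 tested fell. The 3 B cell markers with a row summed to 110.3 and 96.7 FPKM in KO and to 187 and 179 FPKM in WT, and 2 of them, Ighm and Igkc, fell. Cd79a, which defines B cells, was at 3.09 and 3.71 FPKM in KO and 1.79 and 1.82 FPKM in WT. The 5 T and NK cell markers summed to 429 and 359 FPKM in KO and 289 and 348 FPKM in WT, nearly all of it Nkg7 (426 and 356 FPKM in KO, 282 and 341 FPKM in WT). The T cell gene Trbc1 was at 1.30 and 1.72 FPKM in KO and 3.69 and 3.30 FPKM in WT, and Cd3d at 0.778 and 0.841 FPKM in KO and 1.94 and 1.69 FPKM in WT. None of the 3 tested T and NK cell markers was called. No marker with a row was at 0 in any library. The part of these cells in the results that follow was not tested. In such bulk samples fewer cells of a type and less RNA per cell cannot be told apart.

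Transcripts of the autophagy machinery were present in all 4 libraries and differed little between KO and WT. All 41 genes were above 1 FPKM in every library and all 41 passed the filter on level (a mean of at least 1 FPKM over the 4 libraries). Of these, 0 rose and 0 fell (limma on log2(FPKM + 1), adjusted p below 0.05), where 1.01% of the 11768 genes tested were called (0.603% higher and 0.408% lower in KO). At an unadjusted p below 0.05 there were 5 genes, 2 higher and 3 lower in KO. These are Bnip3l and Optn, and Gabarapl1, Atg101 and Fundc1. They were set apart by this threshold, so that their groups do not overlap, as given below, is no result. The same threshold was passed by 20.7% of all genes tested (11.4% higher and 9.35% lower in KO). By limma-voom on recovered reads 0 autophagy genes rose and 1, Gabarapl1, fell, where 5.97% of genes were called (3.16% higher and 2.82% lower in KO).

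**Figure D1:**
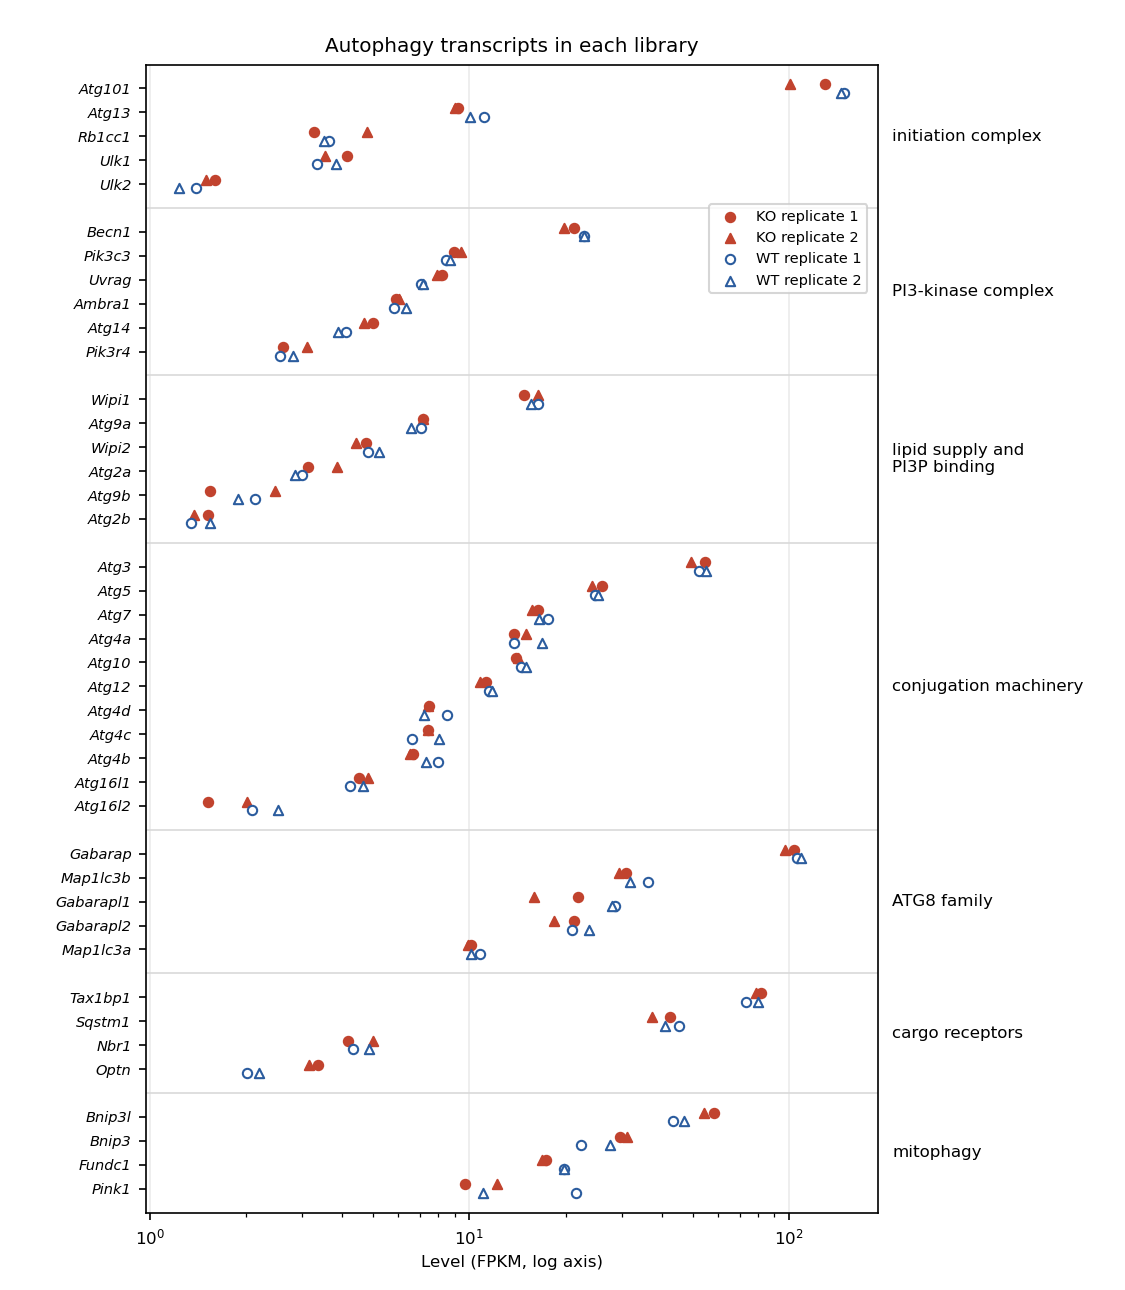
Level of each autophagy gene in each library, in FPKM on a log axis, grouped by role. Filled red symbols are KO and open blue symbols WT, with circles for replicate 1 and triangles for replicate 2. Genes run from Ulk2 at the low end to Atg101 at the high end, the 4 libraries of most genes lie close together, and Pink1 in WT replicate 1 lies apart from the other 3.

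Levels spanned a wide range between genes and a narrow one between libraries. Single values ran from 1.24 FPKM (Ulk2, WT replicate 2) to 149 FPKM (Atg101, WT replicate 1), on 112 to 15056 reads. The median autophagy gene averaged 9.85 FPKM, against 7.22 FPKM for all genes tested. The highest library was below 1.5 times the lowest for 36 of the 41 genes (87.8%), against 72.5% of all genes tested, which were not matched for level. The exceptions were Pink1, Gabarapl1, Optn, Atg16l2 and Atg9b.

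The median log2 fold change of the 41 genes was −0.035, against 0.025 for all genes tested. The median size of change, whatever its sign, was 0.099 for the autophagy genes and 0.16 for all genes tested, again not matched for level. Estimates were below zero for 24 genes and above zero for 17, and 46% of all genes tested were below zero. Both KO libraries lay above both WT libraries for 9 genes (22.0%, against 30.5% of all genes tested) and below them for 14 (34.1%, against 24.9%). Groups overlapped for the other 18 genes, and for 5256 of the 11768 genes tested. The remaining 55.3% of all genes tested had groups that did not overlap. The 95% limits of the change, taken gene by gene, lay within a fold of 1.5 in either direction for 36 genes and within 2 for 40, all but Pink1. With 2 libraries a group the smallest two-sided p of an exact permutation test is 0.333, and the p-values of limma borrow the spread of other genes.

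**Figure D2:**
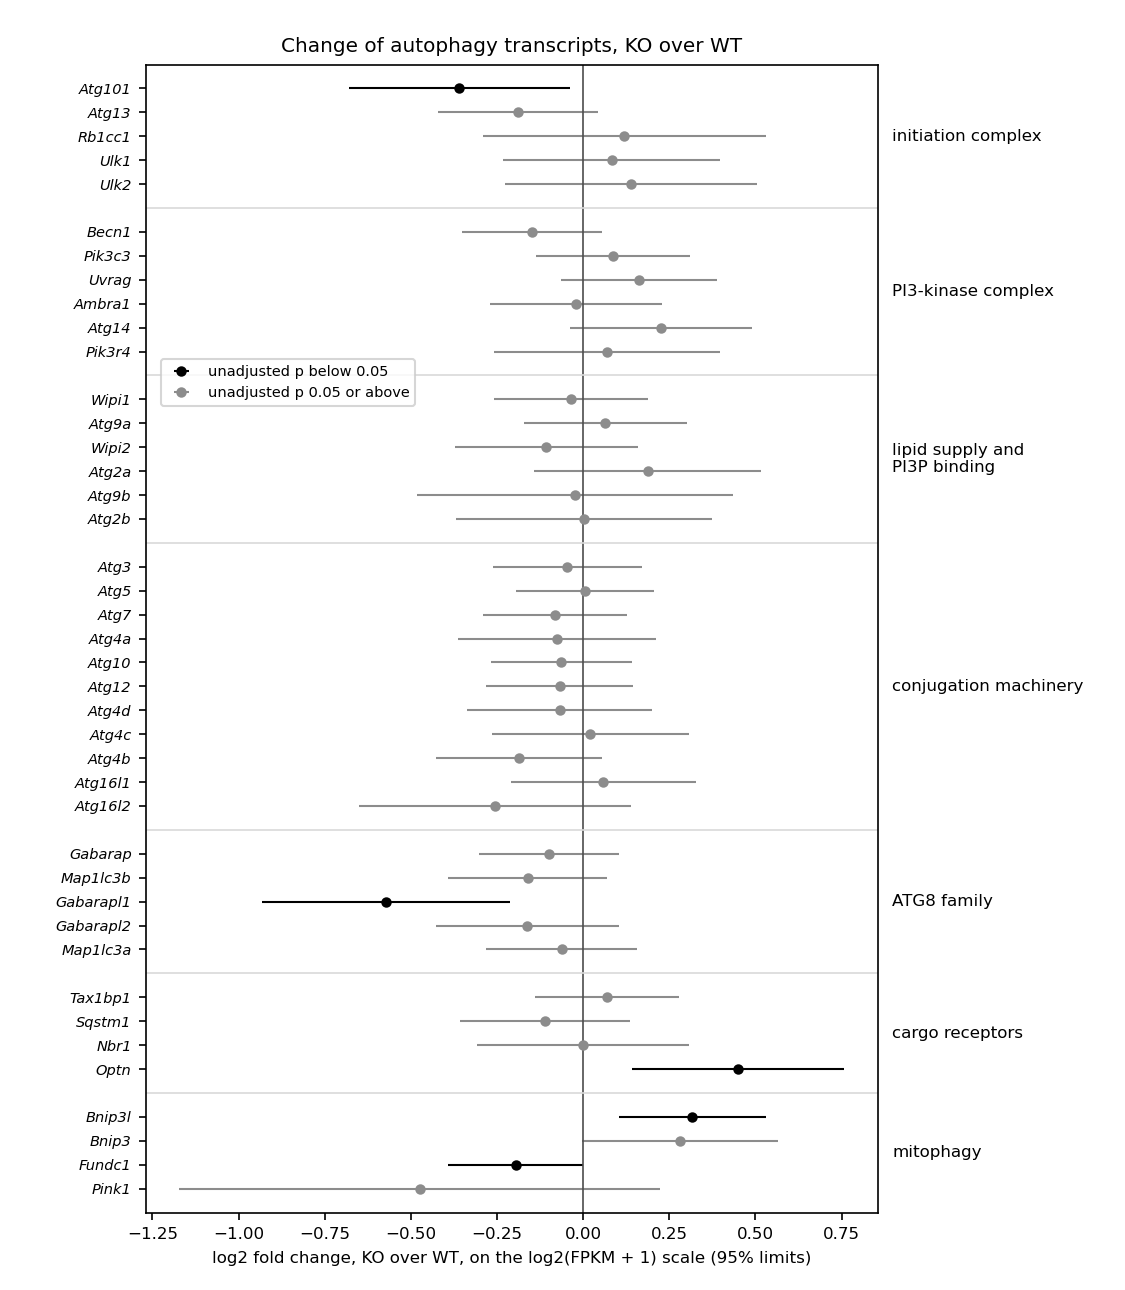
Log2 fold change, KO over WT, of each autophagy gene on the log2(FPKM + 1) scale, with 95% limits from limma, grouped by role. Black marks the 5 genes with an unadjusted p below 0.05. The limits of the other 36 genes include zero, and all 5 ATG8 estimates lie below it.

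Promoters are shown for Gabarapl1, Optn and Atg101, which had an unadjusted p below 0.05, and for Bnip3, which is induced by hypoxia. Fundc1, which also had an unadjusted p below 0.05, is not shown. The 4 shown were chosen after their values were seen. The RefSeq promoter table (GRCm38.p6) held an entry for 34 of the 41 genes, not including Bnip3l. The 4 shown run from 250 to 51 bases before the start, on the gene's strand, with matches to ACGTG in capitals (either strand). ACGTG is the core bound by hypoxia-inducible factors, and it is contained in CACGTG, the E-box bound by TFEB and related lysosomal regulators. Gabarapl1 lies at chr6:129532942-129533141 (plus), Optn at chr2:5064168-5064367 (minus), Bnip3 at chr7:138909557-138909756 (minus) and Atg101 at chr15:101284051-101284250 (plus).
Gabarapl1: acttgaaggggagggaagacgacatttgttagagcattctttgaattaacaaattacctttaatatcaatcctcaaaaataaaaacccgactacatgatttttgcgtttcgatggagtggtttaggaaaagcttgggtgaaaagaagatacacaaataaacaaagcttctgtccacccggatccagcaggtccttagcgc
Optn: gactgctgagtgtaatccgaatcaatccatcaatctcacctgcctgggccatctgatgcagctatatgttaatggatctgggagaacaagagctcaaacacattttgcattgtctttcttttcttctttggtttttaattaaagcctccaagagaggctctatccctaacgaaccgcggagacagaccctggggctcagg
Bnip3: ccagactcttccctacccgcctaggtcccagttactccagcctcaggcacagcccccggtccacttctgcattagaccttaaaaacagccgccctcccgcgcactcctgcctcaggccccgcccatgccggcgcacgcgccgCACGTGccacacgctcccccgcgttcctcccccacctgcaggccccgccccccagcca
Atg101: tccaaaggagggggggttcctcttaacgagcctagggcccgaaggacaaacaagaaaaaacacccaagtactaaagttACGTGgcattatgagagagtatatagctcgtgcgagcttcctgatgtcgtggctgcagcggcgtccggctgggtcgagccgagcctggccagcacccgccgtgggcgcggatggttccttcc

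In the 250 bases before the start, on both strands, ACGTG was found for 14 of the 34 genes (41.2%), against 25.7% of the 8398 tested genes with an entry. CACGTG, which always holds ACGTG, was found for 4 genes (11.8%), against 10.2%. These were Atg3, Atg5, Atg7 and Bnip3, where it lay 108 bases before the start. GTAAACA, a FOXO motif, and AACCACCC, a run taken from the published RREB1 matrix, were found for 0 of the 34, against 2.66% and 0.905% of tested genes. A match is a description of letters and not a binding site, and no match says only that these letters are not in this window.

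The initiation complex senses nutrient and energy supply and starts the autophagosome. Atg101 (chromosome 15, 101284272 to 101290945, plus strand, GRCm38) encodes the subunit that stabilises ATG13, and was the most abundant autophagy transcript. It was at 129.9 and 101 FPKM in KO (3821 and 2742 reads) and at 149 and 145 FPKM in WT (4386 and 3851 reads). Both KO libraries were below both WT libraries, and the KO libraries lay farther apart than the WT libraries. The log2 change was −0.36 (SE 0.13, limma adjusted p = 0.207). It was −0.18 without KO replicate 2 and −0.54 without KO replicate 1.

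The kinase gene Ulk1 was at 4.16 and 3.55 FPKM in KO and at 3.34 and 3.82 FPKM in WT, so the groups overlapped. Its log2 change was 0.08 (95% limits −0.23 to 0.40), and −0.0086 without KO replicate 1. The other 3 genes were Ulk2, Rb1cc1 (the scaffold FIP200) and Atg13, the regulatory subunit. Their changes were 0.14, 0.12 and −0.19, with limma adjusted p-values of 0.628, 0.714 and 0.307. Rb1cc1 stood at 4.79 FPKM in KO replicate 2 and at 3.26 to 3.65 FPKM in the other libraries.

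The PI3-kinase complex was represented by 6 genes, of which 4 had estimates above zero. Becn1 encodes Beclin 1, its regulatory core, and was at 21.3 and 19.8 FPKM in KO and at 22.8 and 22.9 FPKM in WT. Its KO libraries lay below its WT libraries by a log2 change of −0.15 (SE 0.083, limma adjusted p = 0.352). Of the exonic bases of Becn1, 43.9% overlap genes on either strand, mainly Cntd1 on the opposite strand. The gene-level values do not show whether reads of the strands were told apart. Pik3c3, the lipid kinase subunit VPS34, was at 8.96 and 9.40 FPKM in KO and at 8.45 and 8.73 FPKM in WT.

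The alternative partners of Beclin 1 were both slightly higher in KO without passing the test. Atg14 directs the complex to autophagosome formation and averaged 4.84 ± 0.213 FPKM in KO and 3.99 ± 0.158 FPKM in WT (SD, n = 2 each). Uvrag acts in endosome and autophagosome maturation and averaged 8.08 ± 0.177 FPKM in KO and 7.11 ± 0.0518 FPKM in WT (SD, n = 2 each). The groups did not overlap for either gene, and the limma adjusted p-values were 0.291 and 0.362. Of all genes tested 30.5% had both KO libraries above both WT libraries. Gm45187 on the opposite strand overlaps 17.6% of the exonic bases of Uvrag. The activator Ambra1 and the scaffold kinase Pik3r4 overlapped between the groups.

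Lipid supply and PI3P binding involve the scramblase ATG9, the lipid transfer proteins ATG2 and the PI3P-binding WIPI proteins. Wipi1 was the highest of these genes, at 14.8 and 16.4 FPKM in KO and at 16.4 and 15.6 FPKM in WT. Atg9a was at 7.19 and 7.17 FPKM in KO and at 7.06 and 6.59 FPKM in WT. Of its exonic bases 32.6% overlap other annotated genes, mainly Gm29253 on the same strand, so its value is uncertain. The 6 changes of this class ran from −0.11 (Wipi2) to 0.19 (Atg2a). Atg9b, at 1.54 to 2.47 FPKM, is the paralog of Atg9a and shares exonic bases with Nos3 on the opposite strand.

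The conjugation machinery had 11 genes, with changes from −0.26 (Atg16l2) to 0.058 (Atg16l1) and none with an unadjusted p below 0.05. Atg3, the enzyme that transfers ATG8 proteins to lipid, was the highest at 54.5 and 49.4 FPKM in KO and 52.2 and 55.1 FPKM in WT. Atg5, which forms the conjugate with ATG12, was at 26.0 and 24.3 FPKM in KO and at 24.7 and 25.3 FPKM in WT. Its change was 0.0056 (95% limits −0.20 to 0.21). Its sign turned under the other scaling (−0.031) and without KO replicate 1 (−0.041).

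Atg7 is the activating enzyme of both conjugation branches. It was at 16.4 and 15.7 FPKM in KO and at 17.6 and 16.6 FPKM in WT, a log2 change of −0.08 (95% limits −0.29 to 0.13). Atg12 was at 11.3 and 10.8 FPKM in KO and at 11.5 and 11.7 FPKM in WT. Atg16l1, which places the conjugate on the membrane, was at 4.52 and 4.82 FPKM in KO and at 4.25 and 4.65 FPKM in WT. The ATG4 proteases that process ATG8 proteins ran from 6.54 FPKM (Atg4b, KO replicate 2) to 16.9 FPKM (Atg4a, WT replicate 2). Atg4a is uncertain, since 51.2% of its 50-base windows also occur in transcripts of other annotated genes, chiefly its copy Atg4a-ps. Kri1 on the opposite strand overlaps 19.3% of the exonic bases of Atg4d. Of the conjugation genes, 5 had both KO libraries below both WT libraries and 0 had them above, where the shares over all genes tested were 24.9% and 30.5%. Estimates were below zero for 8 of the 11. After scaling by median ratios, which moved the median of all genes tested to −0.0083, they were below zero for 10.

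The ATG8 family held the gene with the largest estimate in size on the log2(FPKM + 1) scale. With 0.1 added in place of 1, Optn (0.60) was marginally larger than this gene, Gabarapl1 (−0.60), and without WT replicate 2 Pink1 (−0.93) was larger. Without KO replicate 2, Gabarapl1 (−0.35) was smaller in size than Pink1 (−0.62), Optn (0.49), Atg16l2 (−0.39) and Bnip3l (0.37). Its first place thus depended on the value added and on which library was left out. Gabarapl1 (chromosome 6, 129533160 to 129542346, plus strand, GRCm38) encodes a GABARAP-type ATG8 protein. It was at 21.9 and 15.9 FPKM in KO (812 and 546 reads) and at 28.6 and 28.0 FPKM in WT (1061 and 934 reads). Both KO libraries were below both WT libraries, with KO replicate 2 the lowest and the WT libraries close together. The KO mean was 66.9% of the WT mean, a log2 change of −0.57 (SE 0.15, 95% limits −0.93 to −0.21, limma adjusted p = 0.134). By limma-voom on recovered reads it fell by 0.61 on the log2 scale (adjusted p = 0.026). With 1 library left out the change ran from −0.35 (without KO replicate 2) to −0.79 (without KO replicate 1), with limma adjusted p-values of 0.396 and 0.061. Of its exonic bases 28.3% overlap 1700101I11Rik on the opposite strand, a gene not analysed here. The values do not show whether the reads there were assigned by strand.

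The other ATG8 genes differed less. Gabarap, the most abundant, was at 103 and 97.1 FPKM in KO and at 106 and 109 FPKM in WT. Map1lc3b, which encodes the LC3B commonly used as the autophagosome marker, was at 31.0 and 29.5 FPKM in KO and at 36.2 and 31.8 FPKM in WT. Gabarapl2 was at 21.2 and 18.4 FPKM in KO and at 20.9 and 23.7 FPKM in WT, so its groups overlapped. Map1lc3a was at 10.1 and 9.89 FPKM in KO and at 10.8 and 10.2 FPKM in WT.

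All 5 estimates of the family were below zero, with a median of −0.16, and each stayed below zero in all alternatives run, the other scaling included. The lowest limma adjusted p among the other 4 was 0.371 (Map1lc3b). The summed level of the family was 188 and 171 FPKM in KO and 202 and 202 FPKM in WT. Gabarapl1 made up 11.7% and 9.32% of that sum in KO and 14.1% and 13.8% in WT. Gabarap made up 55.1% and 56.8% in KO and 52.3% and 53.7% in WT.

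**Figure D3:**
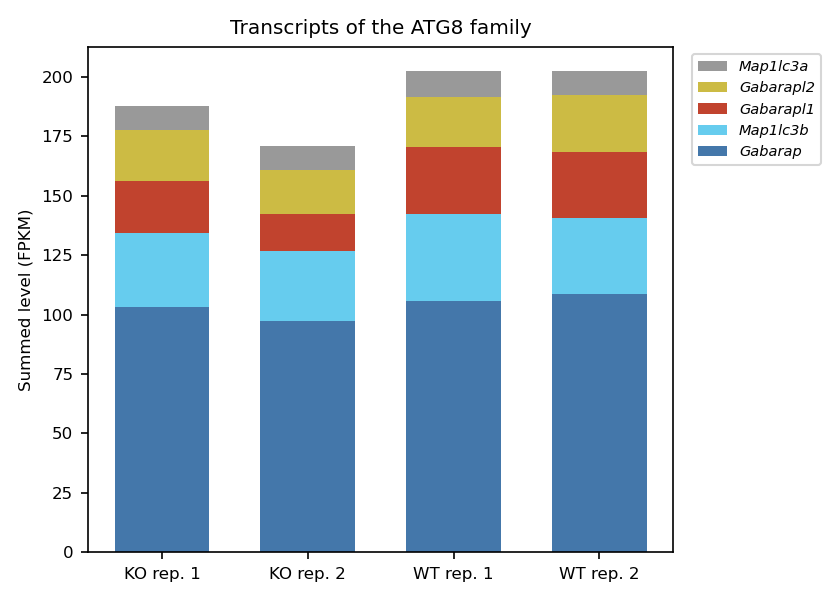
Summed level in FPKM of the 5 ATG8 family genes in each library, KO libraries left and WT libraries right, with 1 colour per gene. The red segment, Gabarapl1, is 21.9 and 15.9 FPKM in KO and 28.6 and 28.0 FPKM in WT.

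Cargo receptors hold ubiquitin-marked cargo to ATG8 proteins. The most abundant was Tax1bp1, at 81.8 and 79.1 FPKM in KO and at 73.4 and 79.9 FPKM in WT, with overlapping groups. Sqstm1 encodes p62, which is itself degraded by autophagy, and was at 42.4 and 37.4 FPKM in KO and at 45.4 and 40.8 FPKM in WT. Its log2 change was −0.11 (95% limits −0.36 to 0.14, limma adjusted p = 0.556). Mrnip on the opposite strand overlaps 17.3% of the exonic bases of Sqstm1, and the values do not show whether reads were counted by strand. Nbr1, a receptor related to p62, was at 4.18 and 5.01 FPKM in KO and at 4.33 and 4.84 FPKM in WT. Its change of −0.00079 turned to 0.11 without KO replicate 1.

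Optn encodes optineurin, a receptor for mitochondria and bacteria, and had the largest positive estimate of the 41 genes. It lies on chromosome 2, 5020642 to 5064051, minus strand (GRCm38). It was at 3.36 and 3.14 FPKM in KO (232 and 201 reads) and at 2.02 and 2.20 FPKM in WT (140 and 137 reads). Both KO libraries were above both WT libraries, and replicates were close within each group. The ratio of means was 1.54, and the log2 change 0.45 (SE 0.13, 95% limits 0.14 to 0.76, limma adjusted p = 0.152). At this low level the added 1 FPKM shrinks the change, which was 0.60 with 0.1 added and 0.61 by limma-voom (adjusted p = 0.149 and 0.071).

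The 4 mitophagy genes differed in direction. Bnip3l encodes NIX, an outer-membrane receptor that removes mitochondria from maturing red cells. It lies on chromosome 14, 66985239 to 67008877, minus strand (GRCm38). It was at 58.5 and 54.3 FPKM in KO (4155 and 3569 reads) and at 43.2 and 46.9 FPKM in WT (3079 and 3000 reads). Both KO libraries were above both WT libraries, by a log2 change of 0.32 (SE 0.088, 95% limits 0.10 to 0.53, limma adjusted p = 0.148). Its copy Bnip3l-ps shares 20.8% of the 50-base windows of Bnip3l transcripts and was at 0.623 and 0.83 FPKM in KO and at 0.814 and 0.532 FPKM in WT. Of the erythroid markers given above 5 rose in KO, and their part in the value of Bnip3l was not tested. Among them Hba-a1 was at 197 and 241 FPKM in KO and 40.6 and 42.4 FPKM in WT. Klf1, a regulator of red cell genes that did not pass the test, was at 0.495 and 0.536 FPKM in KO and 2.23 and 0.943 FPKM in WT.

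Bnip3, the hypoxia-induced relative of Bnip3l, was at 29.6 and 31.2 FPKM in KO and at 22.3 and 27.6 FPKM in WT. Its KO libraries were above its WT libraries, which lay apart from each other. The log2 change was 0.28 (SE 0.12, limma adjusted p = 0.243), and 0.13 without WT replicate 1 (adjusted p = 0.627). Of its exonic bases 22.3% overlap a gene model on the opposite strand, and 47.2% of its 50-base windows also occur in transcripts of other annotated genes, so its value is uncertain.

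Fundc1, another outer-membrane receptor, was at 17.4 and 16.9 FPKM in KO and at 19.8 and 19.8 FPKM in WT. The groups did not overlap and replicates were close, with a log2 change of −0.20 (SE 0.080, unadjusted p = 0.0497, limma adjusted p = 0.240). Pink1, the kinase that marks damaged mitochondria for the ubiquitin ligase Parkin, was at 9.71 and 12.2 FPKM in KO and at 21.6 and 11.0 FPKM in WT. A single library, WT replicate 1, was high (1066 reads, against 478 to 555 in the others), and the groups overlapped. The log2 change was −0.47 (95% limits −1.17 to 0.22, limma adjusted p = 0.382). It was −0.02 without WT replicate 1 and −0.93 without WT replicate 2.

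**Figure D4:**
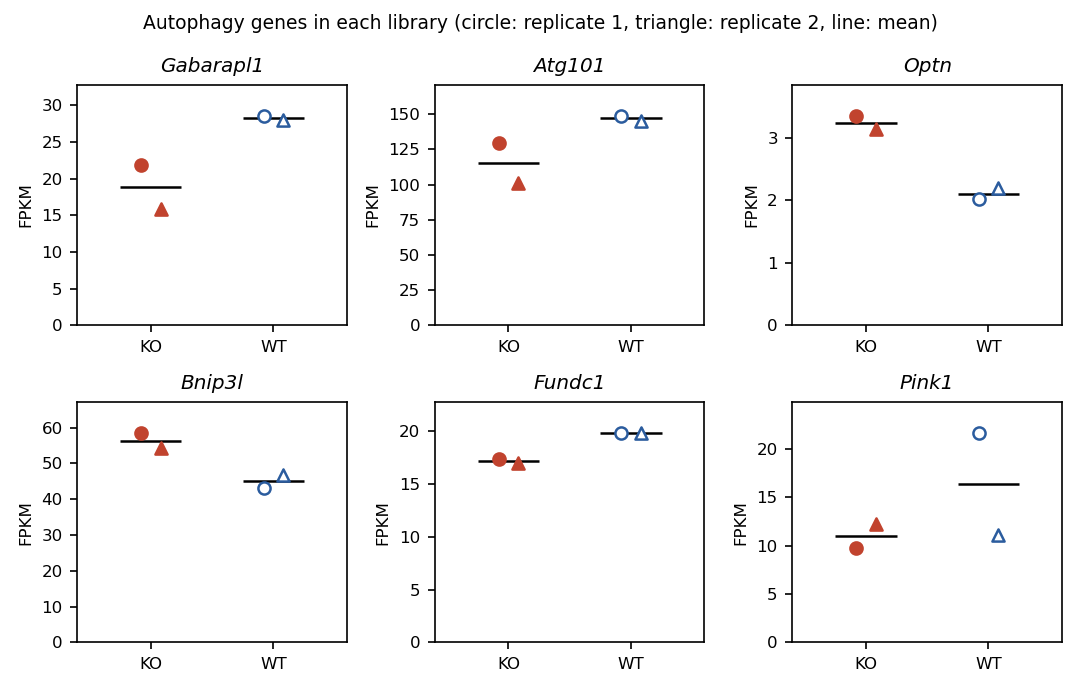
Level in FPKM of 6 autophagy genes in each library, KO left and WT right, each on an axis that starts at 0. Circles are replicate 1, triangles replicate 2 and lines group means (n = 2). The groups are separate for Gabarapl1, Atg101, Optn, Bnip3l and Fundc1, and overlap for Pink1, where WT replicate 1 stands at 21.6 FPKM. The separate genes are those with an unadjusted limma p below 0.05, so their separation is no result. Of all genes tested 55.3% had groups that did not overlap.

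**Figure D5:**
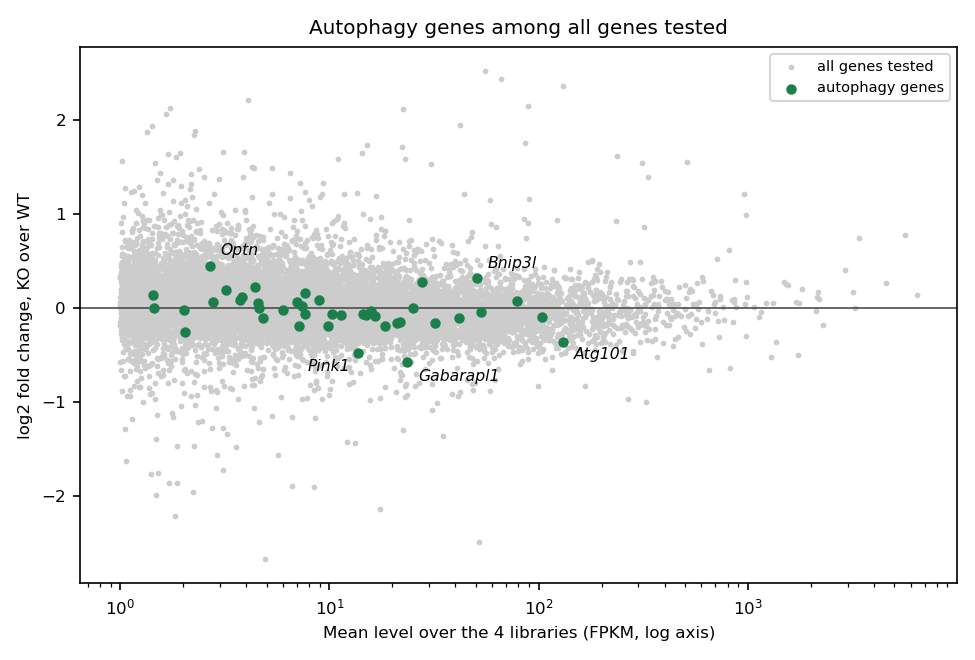
Log2 fold change, KO over WT, against the mean level over the 4 libraries in FPKM (log axis), for the 11768 genes tested (grey) and the 41 autophagy genes (green). The autophagy genes lie between −0.57 (Gabarapl1) and 0.45 (Optn), and 0 of them passed the adjusted threshold.

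Other genes of the pathway lay outside the symbol rule, and 82 were listed by role. Of these 78 had a row, 70 passed the filter on level, 0 rose and 0 fell by limma, with 3 higher and 5 lower at an unadjusted p below 0.05. Of all genes tested 1.01% were called, and 11.4% were higher and 9.35% lower at the unadjusted threshold. By limma-voom 0 pathway genes rose and 1 fell, where 5.97% of genes were called. Their median log2 fold change was 0.015, against 0.025 for all genes tested. Among 27 tested upstream regulators, Bcl2, whose protein holds Beclin 1 inactive, was at 5.51 and 5.19 FPKM in KO and at 7.39 and 8.01 FPKM in WT. Its log2 change was −0.45 (SE 0.10, limma adjusted p = 0.111), and it was the gene that fell by limma-voom (−0.54, adjusted p = 0.013). Rraga, a RAG GTPase that recruits mTORC1 to the lysosome, was at 28.5 and 27.5 FPKM in KO and at 32.6 and 34.4 FPKM in WT.

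Of 22 tested further autophagy factors, Phb2, an inner-membrane mitophagy receptor, was at 46.6 and 42.1 FPKM in KO and at 56.2 and 55.1 FPKM in WT (limma adjusted p = 0.141). Sh3glb1, the Beclin 1 partner endophilin B1, was at 7.08 and 6.25 FPKM in KO and at 9.24 and 8.14 FPKM in WT (limma adjusted p = 0.188). Of 21 tested genes of fusion with the lysosome, Vps16, a core subunit of the HOPS tether, was at 46.7 and 54.6 FPKM in KO and at 39.2 and 40.7 FPKM in WT (limma adjusted p = 0.164). The endosomal SNARE gene Stx7 was at 33.5 and 32.0 FPKM in KO and at 37.4 and 39.8 FPKM in WT (limma adjusted p = 0.200). These 6 genes were picked for the smallest p in each list, so that their groups do not overlap is no result. Groups overlapped for 38 of the 70 tested pathway genes, against 5256 of the 11768 genes tested.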

How the data were processed

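Poly(A) RNA of 4 libraries was sequenced. The submitters' processing notes name featureCounts, DESeq2, CASAVA and HISAT2 2.1.0 with the build GRCm38, but no role for each. The authors deposited 1 table whose unit was inferred from the values: FPKM with 1 added, which was subtracted. With GENCODE M21 exonic lengths, 99.0% to 99.2% of values of up to 30 reads were whole within 0.05, and reads were recovered for all 41 autophagy genes. At these depths 3 reads on 2 kb of exons are 0.0813 to 0.0904 FPKM (counting error only). KO and WT were compared with limma 3.58.1 (R 4.3.3), trend form, on log2(FPKM + 1), two-sided, group as the only term, for 11768 genes averaging 1 FPKM or more. P-values were adjusted over these by Benjamini-Hochberg (threshold 0.05). Residual and prior degrees of freedom were 2 and 4.10. The fits were tested on simulated data. To check for a library deposited more than once, replicate pairs were compared with counting noise, and both differed by more (chi-square per gene 13.1 for KO and 11.0 for WT). Alternatives were another pseudocount, no filter (genes at 0 everywhere left out), median-ratio scaling, limma-voom with trimmed-mean factors, a replicate block and each library left out.

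Members and lists were chosen with earlier results of these data known. Values in every library were given for members with an unadjusted p below 0.05, the highest of each role and 18 textbook names, and of the other lists for up to 2 genes by smallest p. Other genes named (the remaining members and the single markers) were chosen after their values were seen.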

Additional observations from a re-analysis of the deposited data

How the results depend on the processing

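The counts of autophagy and pathway genes that rose or fell were 0 under every alternative except limma-voom on recovered reads, by which 1 autophagy gene fell (Gabarapl1, −0.61, adjusted p = 0.026) and 1 pathway gene fell (Bcl2). The adjusted p of Gabarapl1 ran from 0.026 to 0.399 over its alternatives. The median log2 fold change of the autophagy genes, −0.035, was −0.071 after median-ratio scaling and −0.065 by limma-voom. The median of all genes tested, 0.025, moved the same way, to −0.0083 and 0.0070. With 1 library left out the median of the autophagy genes ran from −0.048 (without KO replicate 2) to −0.0064 (without WT replicate 2). The cause of the shifts with a library left out was not tested. Of the 24 autophagy genes given in full, 5 with changes of up to 0.082 in size turned sign at least once. Atg5 was −0.031 after median-ratio scaling, −0.012 by limma-voom and −0.012 without WT replicate 1, and with 1 library left out it ran from −0.041 (without KO replicate 1) to 0.052 (without KO replicate 2). The same range was −0.10 to 0.031 for Wipi1 (0.0027 without WT replicate 1), −0.11 to 0.11 for Nbr1 (0.065 without WT replicate 2), −0.0086 to 0.17 for Ulk1 and −0.12 to 0.024 for Atg3. For these 4 genes 1 end was without KO replicate 1 and the other without KO replicate 2. With the replicate number as a block, 0 autophagy genes rose, 0 fell and the median was −0.035. The replicate numbers did not pair the libraries (correlation of deviations 0.009). Depth gave at least 112 reads for each autophagy gene in each library. The standard error by limma-voom was 0.094 for Gabarap (3050 to 3603 reads) and 0.24 for Atg9b (112 to 166 reads). How far depth and the number of libraries, 2 per group, each limit the precision was not tested.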
